A study of Rattus norvegicus with 32 samples.

Results

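The genes described here are 53 genes of dividing cells, which act in mitosis or in the copying of DNA, and were chosen by name. Of the 53, 52 were found among the 32883 genes of the count table, and all 52 passed the filter on low counts. They were kept as 36 mitotic genes and 16 S-phase genes, and Ccnb2 was not analysed here. The libraries came from the hippocampus of wild-type rat pups, 1 hippocampus per pup, sequenced as total RNA. The iron-deficient (ID) groups came from dams fed a purified diet with 3 to 6 ppm iron from gestational day 3 to postnatal day 7, and the labels give no iron content for the diet of the iron-sufficient (IS) groups. Pups of the insulin groups received intranasal insulin 2 times a day from postnatal day 8 to 21, and the control groups are labelled only as control. There were 8 IS control, 9 ID control, 7 IS insulin and 8 ID insulin pups. The question was how insulin given to iron-deficient pups bears on hippocampal gene expression relative to iron-sufficient controls.

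The labels give the day of collection as postnatal day 7 or 21 without saying which applies to a pup. The insulin groups ended treatment on day 21, so if the control pups were the younger ones, age and insulin cannot be told apart from the labels. The first number in the sample titles was 69 or 70 for ID control pups, 71 for IS control, 72 for IS insulin and 73 for ID insulin, so it cannot be told apart from the group. Litters are not stated. The deficient diet was fed to dams, so pups of the same dam would not be independent replicates of the diet. Each pup was treated as independent in the tests. If pups shared dams, p-values of the diet comparisons and of the interaction may be too small. Those of the insulin comparisons may be too small as well if whole litters received the same treatment. Neither was tested. Part of the variation from pup to pup may also be technical.

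A cell that divides first copies its DNA in S phase. A ring of Mcm proteins unwinds the double helix, the clamp Pcna holds the polymerases on it, and ribonucleotide reductase and thymidylate synthase supply the building blocks. In mitosis, cyclin-dependent kinase 1 sets off condensation of the chromosomes by the condensin complex, kinetochores attach them to the spindle, and kinesins and their partners build the spindle midzone at which the daughter cells part. In the postnatal rat hippocampus, dividing cells include precursors of granule neurons in the dentate gyrus and precursors of oligodendrocytes. Which cells the transcripts of these genes came from was not measured in these libraries.

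Total counts were 19619345 to 28062630 per library. Levels are given as CPM, the reads of a gene per 1000000 reads of its library, with totals scaled by the trimmed mean of M-values. CPM are not divided by gene length, so levels are compared between libraries and not between genes. Most members were rare. The median count over the libraries was under 100 reads for 31 members, from 100 to under 300 for 13 and at least 300 for 8. It ran from 16.5 reads for Gins2 to 823.5 for Pcna, which by counting alone gives an error of 24.6% and 3.48% of the level, respectively. Beside the whole-hippocampus label, 7 markers of hippocampal neurons such as Prox1 and Zbtb20 were counted, of which 6 passed the filter on low counts. No library of another brain region was compared, so these markers do not test the label. Their summed level was present in all libraries, with means of 708 ± 38.6 CPM (SD, n = 8) in IS control, 715 ± 50.2 (n = 9) in ID control, 638 ± 62.9 (n = 7) in IS insulin and 606 ± 71.3 (n = 8) in ID insulin, where replicate 3 was the lowest of all at 459 CPM. The library labelled ID insulin replicate 3 stood apart from its group. When its counts were set against those of each other ID insulin library, the chi-square divided by the number of genes was 46.1 to 102, and for all remaining within-group pairs it was at most 36.4. Results against ID control are also given without this library for Ncaph, Prc1, Rrm2, Mcm2, Mcm6 and Pcna. Medians of both gene lists are given without it too, whereas the sums of marker lists include it.

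In ID insulin pups compared with ID control pups, 5 of the 36 mitotic genes rose, 0 fell and 31 did not pass the test, which was the quasi-likelihood F-test of edgeR with Benjamini-Hochberg adjustment over all 15439 genes tested and a threshold of 0.05. Over all genes tested, 1.96% were called higher in this comparison, 1.86% lower and 3.82% in either direction. The 5 genes were Mki67, Ncaph, Aspm, Cenpf and Prc1. The median log2 fold change of the 36 mitotic genes was 0.16, against 0.00 for all genes, and the estimate lay above 0 for 32 of them. In a whole hippocampus, more dividing cells, more of this RNA per dividing cell and more of it in other cells cannot be told apart.

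Mki67, which encodes the Ki-67 protein that coats mitotic chromosomes and marks cycling cells, was the member with the clearest separation. Its level was 5.16 to 9.33 CPM in ID control with a median of 7.21, and 9.47 to 11.998 CPM in ID insulin with a median of 10.6. In all 8 ID insulin pups it was above the whole range of the 9 ID control pups, a separation that 0.0907% of all genes tested showed in this direction. The mean was 10.6 ± 0.910 CPM (SD, n = 8) in ID insulin and 7.30 ± 1.23 CPM (n = 9) in ID control. The log2 fold change was 0.54 with a standard error (SE) of 0.10, and the adjusted p was 0.00254.

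Ncaph, the kleisin subunit that closes the ring of condensin I, had the largest fold change of the members. Its level was 1.78 to 3.21 CPM in ID control with a median of 2.02, and 2.40 to 5.42 CPM in ID insulin with a median of 4.31. In 7 of 8 ID insulin libraries it was above every ID control library, and the exception was replicate 3, the library that stood apart. The log2 fold change was 0.99 (SE 0.18, adjusted p = 0.00308), or 1.07 (SE 0.18, adjusted p = 0.00136) without replicate 3. Counts behind these levels were low, at 37 reads in the lowest ID control library and 50 in the lowest ID insulin library.

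The other condensin and chromosome genes did not pass the test. Top2a, the topoisomerase that untangles sister chromatids, ranged from 4.36 to 9.72 CPM in ID control with a median of 8.04 and from 7.66 to 11.3 CPM in ID insulin with a median of 10.6. The groups overlapped, 5 of 8 ID insulin values lay above the ID control range, and the adjusted p missed the threshold (log2 fold change 0.36, SE 0.11, adjusted p = 0.0666). All 7 genes of this kind had an estimate above 0, from 0.05 for Smc4 to that of Ncaph. Of the condensin genes Ncapg, Ncapd2, Smc2 and Smc4, none passed the test, with log2 fold changes of 0.37, 0.16, 0.06 and 0.05. At an unadjusted p under 0.05, 14 of all 52 members (26.9%) differed in this comparison, and so did 19.5% of all genes tested.

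Among the kinetochore and checkpoint genes, Cenpf rose and Cenpe, Bub1, Bub1b and Knl1 did not pass the test. Cenpf encodes a large protein that joins the outer kinetochore late in the cycle. It was at 2.37 to 4.33 CPM in ID control, median 3.72, and at 3.68 to 6.64 CPM in ID insulin, median 5.13. The groups overlapped, with 5 of 8 ID insulin values above the ID control range. The log2 fold change was 0.49 (SE 0.12, adjusted p = 0.0161). All 5 genes of this kind had an estimate above 0, with a median of 0.21.

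Of the 11 kinesins and spindle proteins, Aspm and Prc1 rose, and all 11 estimates lay above 0 with a median of 0.13. Aspm, a protein of the spindle poles needed for normal brain size, was at 3.75 to 5.02 CPM in ID control, median 4.22, and at 4.52 to 6.73 CPM in ID insulin, median 5.66. In ID insulin 7 of 8 libraries were above every ID control library. Its log2 fold change was 0.40 (SE 0.08, adjusted p = 0.00672). Prc1 bundles the microtubules of the spindle midzone. It was at 5.43 to 10.0 CPM in ID control, median 6.91, and at 8.27 to 17.8 CPM in ID insulin, median 9.67. The groups overlapped, with 2 of 8 ID insulin values above the ID control range, and the highest value belonged to replicate 3. The log2 fold change of Prc1 was 0.51 (SE 0.15, adjusted p = 0.0436) and fell short of the threshold without that library, at 0.37 (SE 0.13, adjusted p = 0.0975). Reads of Aspm and Prc1 may include those of other genes, because in RefSeq's GRCr8 annotation each overlaps an uncharacterised gene and the sources used here do not say whether counting used the strand. With Aspm and Prc1 included, 25 of the 52 members overlap some other gene in that annotation, whereas Mki67, Cenpf, Ncaph, Top2a and Kif2c do not.

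None of the cyclin, kinase and cytokinesis genes passed the test. Cdk1, the kinase that starts mitosis, was at 1.45 to 2.79 CPM in ID control, median 2.26, and at 2.00 to 3.62 CPM in ID insulin, median 2.97. Its groups overlapped (log2 fold change 0.36, SE 0.15, adjusted p = 0.166). Ccnb1, the cyclin that activates Cdk1, was at 2.24 to 3.86 CPM in ID control, median 2.86, and at 2.40 to 4.67 CPM in ID insulin, median 3.70. Here too the groups overlapped (log2 fold change 0.35, SE 0.14, adjusted p = 0.156). The 6 mitotic kinases and passenger proteins, Aurka, Aurkb, Plk1, Cdca8, Birc5 and Incenp, spread around 0, from -0.12 for Aurka to 0.10 for Cdca8 with a median of 0.01. Racgap1, Ect2 and Anln of cytokinesis had log2 fold changes of 0.43, 0.17 and -0.07.

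**Figure D1:**
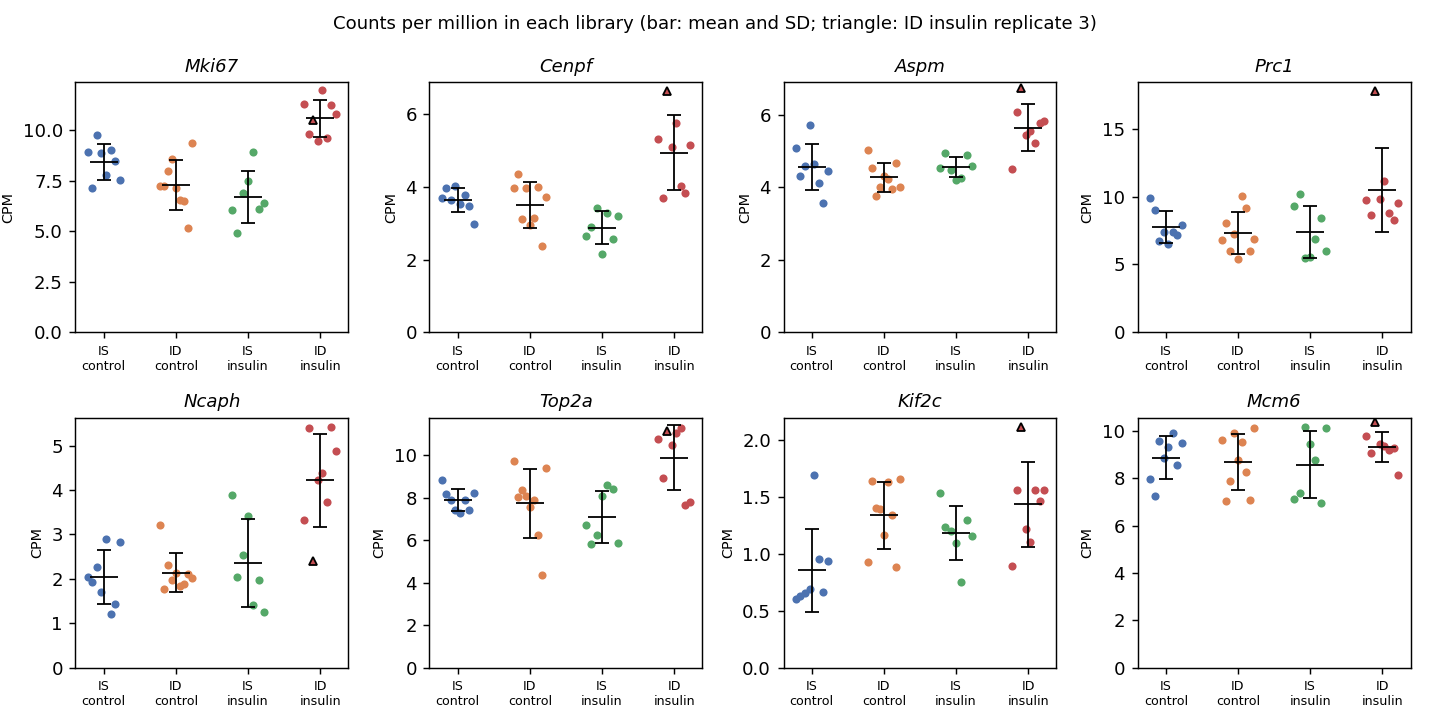
Level of 8 members in each library in CPM (vertical axis, from 0), by group; horizontal bars give the mean and whiskers the SD, and the triangle is ID insulin replicate 3. All 8 ID insulin libraries of Mki67 lie above all ID control libraries, whereas Mcm6, an S-phase gene, overlaps in all 4 groups.

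No S-phase gene passed the test between ID insulin and ID control. By edgeR, DESeq2 and limma voom 0 of 16 were called, and 3 (Tyms, Rrm2 and Rrm1) had an unadjusted p under 0.05 by edgeR, a share of 18.8% against 19.5% of all genes. The lowest adjusted p was 0.109. The median log2 fold change was 0.13 and 14 of 16 estimates lay above 0, so that the estimates of S-phase genes mostly had the same sign as those of the mitotic genes. Whether both lists differ from each other was not tested.

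Within S phase, the median log2 fold change was 0.34 for the 3 genes that supply building blocks and 0.10 for the 11 genes of the replication fork, with values from 0.13 to 0.51 and from -0.11 to 0.23. Rrm2, the subunit of ribonucleotide reductase whose amount follows the cycle, was at 0.863 to 1.88 CPM in ID control, median 1.19, and at 1.34 to 3.80 CPM in ID insulin, median 1.56. Its groups overlapped and replicate 3 held the highest value. The log2 fold change of Rrm2 was 0.51 (SE 0.20, adjusted p = 0.155), or 0.30 (SE 0.17, adjusted p = 0.345) without replicate 3. Tyms, thymidylate synthase, had a log2 fold change of 0.34 (SE 0.12, adjusted p = 0.109) with means of 6.01 ± 1.17 CPM (SD, n = 9) in ID control and 7.58 ± 1.54 CPM (n = 8) in ID insulin.

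At the replication fork, the Mcm helicase and the clamp did not pass the test. Mcm2 was at 5.78 to 9.68 CPM in ID control, median 7.23, and at 6.47 to 10.97 CPM in ID insulin, median 7.22. Mcm6 was at 7.03 to 10.1 CPM in ID control, median 8.78, and at 8.16 to 10.4 CPM in ID insulin, median 9.33. Pcna, the most counted member, was at 31.5 to 37.2 CPM in ID control, median 34.9, and at 30.0 to 40.3 CPM in ID insulin, median 35.9. All 3 genes overlapped between the groups. Their log2 fold changes were 0.08 (SE 0.10, adjusted p = 0.683) for Mcm2, 0.10 (SE 0.09, adjusted p = 0.551) for Mcm6 and 0.04 (SE 0.06, adjusted p = 0.798) for Pcna. Without ID insulin replicate 3, the same edgeR test gave 0.0053 (SE 0.09, adjusted p = 0.982), 0.08 (SE 0.09, adjusted p = 0.669) and 0.009 (SE 0.06, adjusted p = 0.961), respectively. The lowest estimates of the S-phase genes were -0.22 for Uhrf1, which guides maintenance of DNA methylation behind the fork, and -0.11 for Gins2, a subunit of the helicase assembly.

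**Figure D2:**
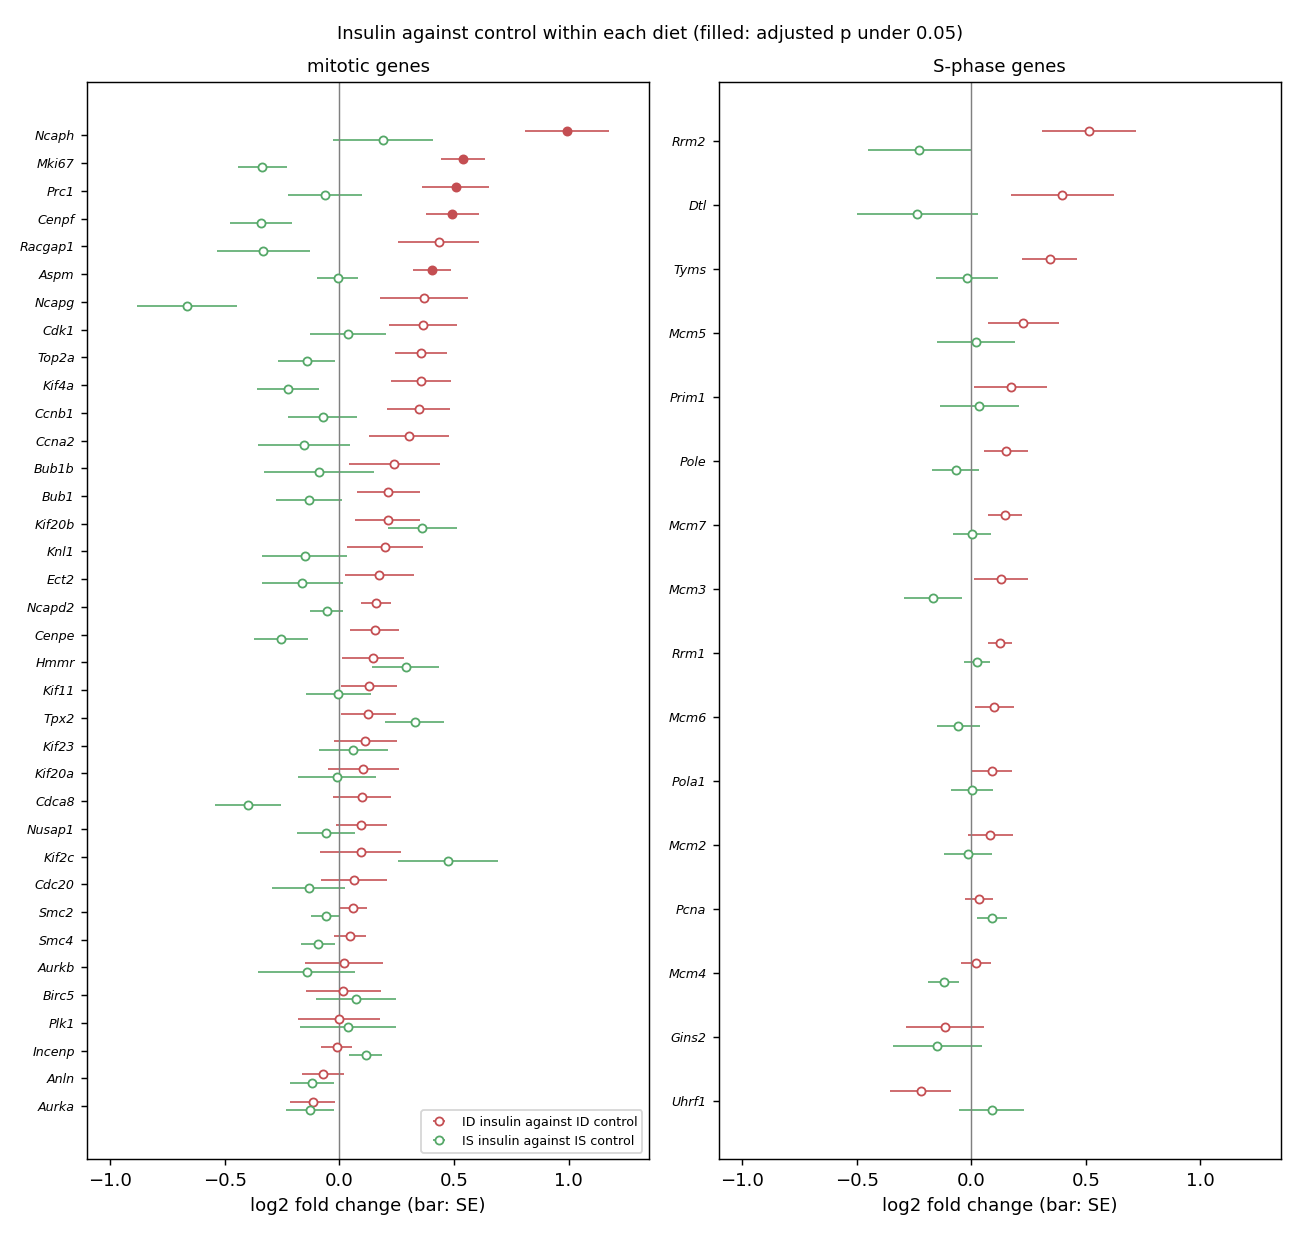
Log2 fold change (horizontal axis) of each of the 52 genes between insulin and control pups within the ID diet (red) and within the IS diet (green); bars give the SE and filled points an adjusted p under 0.05. The 5 filled points are mitotic genes in the ID diet, and no S-phase gene and no comparison within the IS diet has one.

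The promoters of the 5 mitotic genes called in ID insulin against ID control are shown with that of Mcm6, since both kinds of genes are known to be switched on through different sites. In mammals, mitotic genes are typically held back and then activated through a cell cycle genes homology region (CHR) bound by the DREAM and MuvB complexes, often beside CCAAT boxes bound by NF-Y, and S-phase genes through E2F sites. The windows hold 250 bases before to 50 bases after the gene start in RefSeq's GRCr8 assembly, written 5′ to 3′ on the strand of the gene. Capitals mark matches on either strand. For the CHR the letters searched were TTTGAA and also the variant TTCGAA, and for the box bound by NF-Y they were CCAAT. For the E2F type they were TTCCCGC and its relatives, namely TTTGGCG and, as the last form searched, TTTCGCG. Mki67 is at chr1:199952544-199952843 on the minus strand, Cenpf at chr13:103760837-103761136 on the minus strand, Aspm at chr13:53625334-53625633 on the plus strand, Prc1 at chr1:143659231-143659530 on the plus strand, Ncaph at chr3:134852453-134852752 on the minus strand and Mcm6 at chr13:42404303-42404602 on the minus strand.
Mki67: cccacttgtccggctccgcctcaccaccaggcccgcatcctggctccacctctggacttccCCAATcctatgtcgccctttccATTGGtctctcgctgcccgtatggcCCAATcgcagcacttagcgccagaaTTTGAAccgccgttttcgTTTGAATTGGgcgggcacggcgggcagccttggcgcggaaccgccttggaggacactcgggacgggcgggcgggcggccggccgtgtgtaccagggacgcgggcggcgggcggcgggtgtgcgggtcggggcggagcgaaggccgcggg
Cenpf: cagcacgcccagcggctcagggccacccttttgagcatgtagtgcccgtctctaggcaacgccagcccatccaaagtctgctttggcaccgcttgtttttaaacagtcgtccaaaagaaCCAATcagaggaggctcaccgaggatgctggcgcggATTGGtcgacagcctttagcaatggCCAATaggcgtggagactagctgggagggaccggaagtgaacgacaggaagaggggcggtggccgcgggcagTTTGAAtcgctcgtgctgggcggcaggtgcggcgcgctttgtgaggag
Aspm: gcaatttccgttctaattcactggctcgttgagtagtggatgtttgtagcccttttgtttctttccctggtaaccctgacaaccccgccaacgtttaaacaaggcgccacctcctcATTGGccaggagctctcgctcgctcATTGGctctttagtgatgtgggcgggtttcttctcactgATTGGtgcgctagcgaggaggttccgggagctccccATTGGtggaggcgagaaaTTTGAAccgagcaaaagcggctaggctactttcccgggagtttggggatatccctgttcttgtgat
Prc1: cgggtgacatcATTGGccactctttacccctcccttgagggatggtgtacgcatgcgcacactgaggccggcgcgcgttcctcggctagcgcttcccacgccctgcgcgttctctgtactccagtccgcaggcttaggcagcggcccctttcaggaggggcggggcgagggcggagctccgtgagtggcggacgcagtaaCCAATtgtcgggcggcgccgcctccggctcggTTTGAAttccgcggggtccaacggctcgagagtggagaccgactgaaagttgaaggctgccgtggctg
Ncaph: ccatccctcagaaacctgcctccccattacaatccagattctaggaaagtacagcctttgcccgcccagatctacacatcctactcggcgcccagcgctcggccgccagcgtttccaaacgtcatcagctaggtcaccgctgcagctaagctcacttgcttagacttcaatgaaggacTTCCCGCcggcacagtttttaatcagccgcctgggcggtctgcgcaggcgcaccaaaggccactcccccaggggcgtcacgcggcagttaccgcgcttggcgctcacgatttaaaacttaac
Mcm6: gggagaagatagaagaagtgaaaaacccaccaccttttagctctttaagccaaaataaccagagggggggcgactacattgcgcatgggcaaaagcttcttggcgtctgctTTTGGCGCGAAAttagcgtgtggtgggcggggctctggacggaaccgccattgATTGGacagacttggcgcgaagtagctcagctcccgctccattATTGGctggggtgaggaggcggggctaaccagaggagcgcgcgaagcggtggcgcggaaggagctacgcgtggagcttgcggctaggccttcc
Positions count from -1 for the base before the gene start and from 1 for its first base. Mki67 had CHR matches at -117 and -99, the latter sharing a base with a reversed CCAAT box at -94. Aspm had its CHR match at -16 and Prc1 at -18, each with CCAAT boxes upstream, and Cenpf at 3. Ncaph, with the largest fold change, had neither a CHR nor a CCAAT match in this window and 1 E2F-type match at -72. In Mcm6 the E2F-type matches at -139 and -134 overlap each other.

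A promoter was held for 45 of the 52 members, and not for Ccna2, Aurkb, Tpx2, Racgap1, Incenp, Mcm4 and Rrm2. The CHR letters stood in 23 of 31 mitotic promoters (74.2%), in 3 of 14 S-phase promoters (21.4%) and in 19.7% of all 33469 promoters of the same length. E2F-type letters stood in 5 of 31 mitotic (16.1%) and 12 of 14 S-phase promoters (85.7%), against 6.19% of all promoters. CCAAT boxes were found in 77.4% of the mitotic, 85.7% of the S-phase and 37.5% of all promoters. The median share of G and C was 58% in mitotic, 60% in S-phase and 51.7% in all promoters. A match is a run of letters and not a measured binding site. Between ID insulin and ID control, the median log2 fold change was 0.17 for the 23 mitotic genes with CHR letters and 0.14 for the 8 without.

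**Figure D3:**
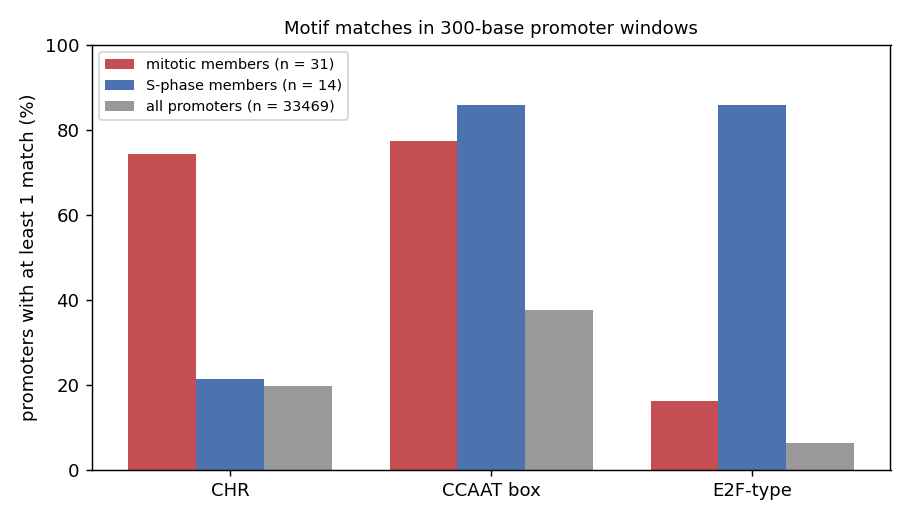
Share of promoters in percent (vertical axis, from 0) with at least 1 match to each kind of motif, for the mitotic members, the S-phase members and all promoters. CHR letters were found in 74.2% of mitotic and 21.4% of S-phase promoters, and E2F-type letters in 16.1% and 85.7%.

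Between ID insulin and IS insulin, the comparison of the diets in pups that had received insulin, 4 of the 36 mitotic genes were higher (Mki67, Cenpf, Ncaph and Top2a) and 0 lower, with 1.32% of all genes called higher, 1.13% lower and 2.45% in either direction. The median log2 fold change was 0.28 for the mitotic genes, 30 of 36 above 0, and 0.00 for all genes. This comparison shares the ID insulin libraries with the one before.

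Mki67 was at 4.90 to 8.91 CPM in IS insulin, median 6.42, and so below all ID insulin libraries. Its log2 fold change was 0.67 (SE 0.10, adjusted p = 9.10e-04). Cenpf was at 2.15 to 3.42 CPM in IS insulin, median 2.89, and likewise below all ID insulin libraries. Its log2 fold change was 0.78 (SE 0.13, adjusted p = 0.00139). Aurkb, the kinase of the chromosomal passenger complex, was the third member whose groups did not overlap, with 3.38 to 6.40 CPM in ID insulin against 2.06 to 2.95 CPM in IS insulin. Its difference did not pass the test (log2 fold change 0.68, SE 0.20, adjusted p = 0.0561). Such a separation, every ID insulin library above every IS insulin library, was found for 0.220% of all genes.

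Ncaph was at 1.25 to 3.90 CPM in IS insulin, median 2.04. It overlapped with ID insulin, 5 of whose 8 libraries were above every IS insulin library (log2 fold change 0.85, SE 0.19, adjusted p = 0.0176). Top2a was at 5.83 to 8.604 CPM in IS insulin, median 6.73, and overlapped as well, with 6 of 8 above (log2 fold change 0.47, SE 0.12, adjusted p = 0.0368). Of the 16 S-phase genes 0 were called by edgeR, DESeq2 or limma voom and 4 (25.0%) had an unadjusted p under 0.05 by edgeR, as did 20.1% of all genes. Their median log2 fold change was 0.16, with 15 of 16 above 0. The levels in IS insulin were 1.79 to 2.81 CPM for Cdk1, 1.98 to 4.28 CPM for Ccnb1, 6.86 to 8.10 CPM for Mcm2, 6.95 to 10.2 CPM for Mcm6, 31.0 to 45.5 CPM for Pcna and 0.754 to 1.83 CPM for Rrm2, all overlapping with ID insulin. Prc1 (5.45 to 10.2 CPM), Aspm (4.21 to 4.94 CPM) and Kif2c (0.754 to 1.54 CPM) also overlapped with it and were not called.

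Against the pups that had neither deficiency nor insulin, ID insulin pups again had 4 mitotic genes higher and 0 lower. Over all genes 2.07% were called higher, 1.28% lower and 3.35% in either direction. The median log2 fold change of the mitotic genes was 0.22, 33 of 36 above 0, and 0.01 for all genes. Ncaph was at 1.21 to 2.90 CPM in IS control, median 1.99, and 7 of the 8 ID insulin values were above all of these (log2 fold change 1.04, SE 0.19, adjusted p = 0.00257). Cenpf was at 2.98 to 4.02 CPM in IS control, median 3.65, and Aspm at 3.57 to 5.73 CPM, median 4.52. Both overlapped with ID insulin, with log2 fold changes of 0.44 (SE 0.12, adjusted p = 0.0359) and 0.30 (SE 0.08, adjusted p = 0.0428).

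Kif2c, a kinesin that takes microtubules apart at kinetochores, passed the test in this comparison and in no other. It was at 0.605 to 1.70 CPM in IS control, median 0.678, and at 0.893 to 2.12 CPM in ID insulin, median 1.51, on as few as 13 reads in a library. The groups overlapped, with 5 of 8 IS control values below the whole ID insulin range and 3 within it, of which replicate 5 was the highest at 1.70 CPM. The log2 fold change was 0.75 (SE 0.20, adjusted p = 0.0339). Mki67 was at 7.12 to 9.76 CPM in IS control, median 8.66, and just short of the threshold (log2 fold change 0.33, SE 0.10, adjusted p = 0.0529). Without ID insulin replicate 3, Ncaph alone was called in this comparison. S-phase genes had a median log2 fold change of 0.09, with 0 of 16 called by edgeR, DESeq2 or limma voom and 2 (12.5%) at an unadjusted p under 0.05 by edgeR, against 20.3% of all genes.

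Iron deficiency without insulin was not accompanied by a called difference in any member. Of the 36 mitotic and 16 S-phase genes 0 passed the edgeR test between ID control and IS control, where 0.291% of all genes were called (0.175% higher, 0.117% lower). Nor were the groups of any member wholly apart, as they were for 0.0842% of all genes with ID control above and 0.0583% with it below. At an unadjusted p under 0.05 there were 4 mitotic genes (11.1%) and 0 S-phase genes, with 11.9% of all genes at that level. DESeq2 called 0 members, and limma voom called 2, Kif2c higher and Kif4a lower in ID control. The median log2 fold change was 0.00 for mitotic and -0.01 for S-phase genes. Kif2c had the largest estimate, 0.66 (SE 0.20, adjusted p = 0.150), and in ID control was at 0.889 to 1.66 CPM, median 1.39. Kif4a, a chromosome-bound kinesin, had the lowest, -0.37 (SE 0.13, adjusted p = 0.218), with means of 2.94 ± 0.245 CPM (SD, n = 9) in ID control and 3.79 ± 0.613 CPM (n = 8) in IS control.

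The remaining named members overlapped between the control groups. Levels in IS control were 7.28 to 8.84 CPM for Top2a, 6.52 to 9.91 CPM for Prc1, 1.32 to 2.82 CPM for Cdk1 and 2.50 to 3.70 CPM for Ccnb1. Among the S-phase genes they were 5.76 to 8.23 CPM for Mcm2, 7.25 to 9.91 CPM for Mcm6, 31.9 to 35.0 CPM for Pcna and 1.19 to 2.07 CPM for Rrm2. The intervals around the estimates were wide for the rarer genes, so that a p above the threshold does not show equal levels.

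Insulin in iron-sufficient pups was likewise not accompanied by a called member. Between IS insulin and IS control 0 of the 36 mitotic and 0 of the 16 S-phase genes were called by edgeR, DESeq2 or limma voom, with 0.123% of all genes called by edgeR (0.0712% higher, 0.0518% lower). The groups of 0 members were wholly apart, against 0.149% of all genes with IS insulin above and 0.220% with it below. At an unadjusted p under 0.05 by edgeR there were 8 mitotic (22.2%) and 0 S-phase genes, and 16.3% of all genes. As a description of these 8, Mki67, Cenpf, Cenpe, Ncapg and Cdca8 had negative estimates, and Kif20b, Kif2c and Tpx2 positive ones. Mki67 had a log2 fold change of -0.34 (SE 0.11, adjusted p = 0.129) and Cenpf of -0.34 (SE 0.14, adjusted p = 0.202). The median was -0.08 for mitotic genes, 26 of 36 below 0, and -0.02 for S-phase genes, while that of all genes was 0.01.

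Whether the difference between insulin and control pups depended on the diet was tested as an interaction, the log2 fold change in ID pups minus that in IS pups. It passed the test for 2 mitotic genes, Mki67 and Cenpf, with 0.512% of all genes called with a positive interaction, 0.427% with a negative one and 0.939% with either sign. For Mki67 it was 0.88 (SE 0.14, adjusted p = 0.00433), made up of 0.54 in ID and -0.34 in IS pups. For Cenpf it was 0.84 (SE 0.18, adjusted p = 0.0242), made up of 0.49 and -0.34. Ncapg, a subunit of condensin I, had the largest estimate of the members, 1.03 (SE 0.29), but did not pass at an adjusted p of 0.0695. The median interaction was 0.27 for mitotic genes, with 29 of 36 above 0, and 0.14 for S-phase genes, of which 0 were called by edgeR, DESeq2 or limma voom and 1 had an unadjusted p under 0.05 by edgeR (17.1% of all genes had). The median of all genes was -0.01.

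Ordered by their group means, 30 of 36 mitotic genes (83.3%) and 13 of 16 S-phase genes were highest in ID insulin, which was the highest group for 29.4% of all genes. IS insulin was the lowest group for 20 of 36 mitotic and 7 of 16 S-phase genes, and for 24.6% of all genes. For each library, the members' levels were also expressed as a percentage of each gene's mean over the 32 libraries and averaged. For mitotic genes this average was 90.1% to 101.6% (IS control), 82.5% to 107.4% (ID control), 84.7% to 98.8% (IS insulin) and 105.6% to 137.1% (ID insulin). The ID insulin libraries were above all IS control and IS insulin libraries and overlapped only with the upper ID control libraries. For S-phase genes it was 92.2% to 106.0%, 86.1% to 108.2%, 88.7% to 98.7% and 95.5% to 128.0% in the same order, and ID insulin overlapped with all 3 other groups. All members were measured in the same libraries, so this average has no more replicates than there are pups.

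**Figure D4:**
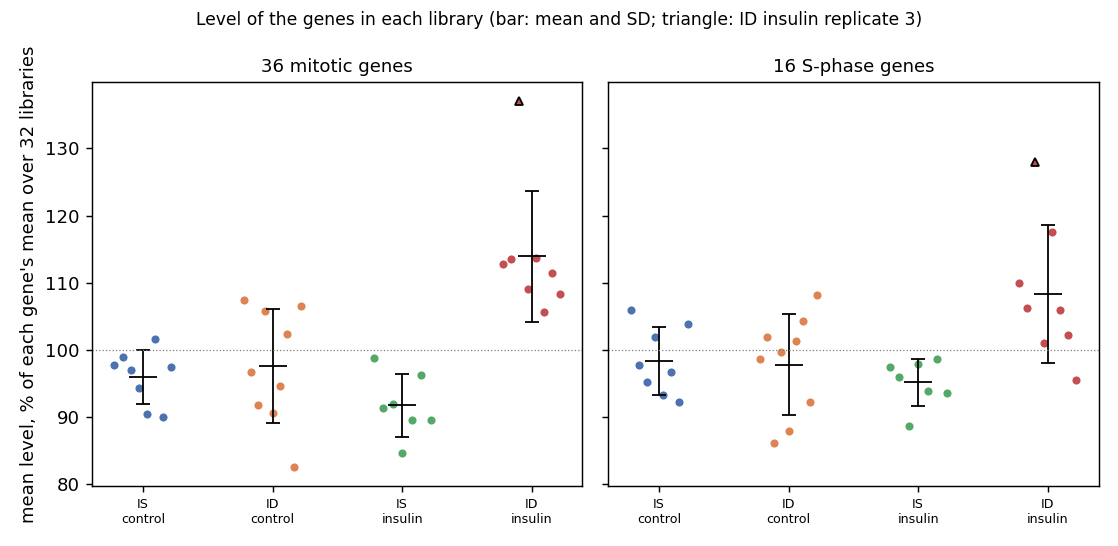
Mean level of the mitotic genes (left) and S-phase genes (right) in each library, as a percentage of each gene's mean over the 32 libraries (vertical axis, not from 0); bars give mean and SD and the triangle is ID insulin replicate 3. ID insulin libraries lie at 105.6% or above for mitotic genes, with replicate 3 at 137.1%.

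Single libraries set part of the spread. Among ID insulin pups, replicate 3 had the highest level of 18 of 36 mitotic and 7 of 16 S-phase genes. Without it, 4 mitotic genes were called against ID control, 4 against IS insulin, 1 against IS control and 2 in the interaction. Over all genes, the interaction was called for 594 without replicate 3 and for 145 with all libraries. Without it the medians of the mitotic genes were 0.15, 0.25, 0.20 and 0.26, and those of the S-phase genes 0.10, 0.12, 0.07 and 0.15. In ID control, replicate 1 was the highest for 11 mitotic genes and replicate 8 the lowest for 12. Within the ID control group, the libraries with title numbers 70 and 69 differed in 1 member, with 0.220% of 15008 genes called. This was Prim1, the catalytic subunit of primase, which lays the first primers at the fork. Prim1 had a mean of 25.5 CPM in the 4 libraries of number 70 and 17.3 CPM in the 5 of number 69, with a log2 fold change of 0.56 (SE 0.08, adjusted p = 0.0222). In the other groups Prim1 also ranged widely, from 12.7 to 31.98 CPM in ID insulin, 17.9 to 31.1 CPM in IS insulin, and in IS control 14.3 to 29.4 CPM, without a called difference between groups. Against number 69 alone and number 70 alone, Mki67 in ID insulin had log2 fold changes of 0.47 and 0.62 (adjusted p = 0.0259 and 0.0115).

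Other genes of the cycle were counted on 3 further lists. Of 49 other mitotic genes tested, 2 rose and 0 fell between ID insulin and ID control, with a median log2 fold change of 0.17. These were Plk4, the kinase that starts centriole duplication (log2 fold change 0.62, SE 0.14, adjusted p = 0.0116, mean 3.80 against 5.90 CPM), and Depdc1 (0.84, SE 0.22, adjusted p = 0.0307, mean 0.416 against 0.761 CPM). Of 41 other replication genes 0 were called by edgeR, DESeq2 or limma voom, with 5 (12.2%) at an unadjusted p under 0.05 by edgeR and a median of 0.11. Of 39 regulators of the cycle, such as cyclins D and E, E2F factors and inhibitors of cyclin-dependent kinases, 0 were called by edgeR and limma voom and 1 by DESeq2, 7 (17.9%) had an unadjusted p under 0.05 by edgeR, and the median was 0.04. The shares of all genes in this comparison were 19.5% at that level and 1.96% called higher.

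Between ID insulin and IS control, the called genes of these lists were Gtse1 (log2 fold change 0.53, SE 0.15, adjusted p = 0.0426) and Cep55, which completes the cut between daughter cells (0.78, SE 0.23, adjusted p = 0.0491), and the regulators Cdc25b, a phosphatase that activates Cdk1 (0.51, SE 0.14, adjusted p = 0.0350), and Ccnd1, a cyclin of early G1 (0.24, SE 0.07, adjusted p = 0.0476). In each of the 4, the mean in ID insulin was the highest of the groups. The medians were 0.20 for the 49 other mitotic genes, 0.09 for the 41 other replication genes and 0.07 for the 39 regulators. Over all genes, 2.07% were called higher in this comparison.

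Markers of progenitor cells, of oligodendrocyte precursors and of immature neurons were counted beside these results. Between ID insulin and ID control, 1.96% of all genes were called higher and 1.86% lower. Of 10 markers of neural stem and intermediate progenitor cells 0 were called between ID insulin and ID control. By edgeR, 19.5% of all genes had an unadjusted p under 0.05, and 0 of these 10 markers did. Summed over the whole list, as for the lists that follow with genes under the filter included, their levels were 108 to 133 CPM (IS control), 107 to 132 (ID control), 115 to 137 (IS insulin) and 115 to 146 (ID insulin). Of 9 markers of oligodendrocyte precursors 2 were higher, Gpr17 (log2 fold change 0.28, SE 0.05, adjusted p = 0.00232) and Vcan (0.22, SE 0.06, adjusted p = 0.0344), while Pdgfra and Cspg4 were at 0.03 and 0.03 without passing the test. The sums, with groups in that order, were 692 to 789, 650 to 725, 667 to 725 and 672 to 864 CPM. Of 7 markers of immature neurons 1 was higher, Dcx (0.27, SE 0.06, adjusted p = 0.0106), with sums of 747 to 844, 710 to 840, 668 to 815 and 669 to 866 CPM in the same order. Within ID insulin, replicate 3 had the highest progenitor and oligodendrocyte precursor sums and the lowest immature neuron sum.

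Markers of other cells and of tissues next to the hippocampus were counted in the same comparison, in which 1.96% of all genes were called higher and 1.86% lower. Of the 6 hippocampal neuron markers 1 was lower in ID insulin than in ID control (Wfs1, log2 fold change -0.38, SE 0.10, adjusted p = 0.0257), 5 of 6 estimates were below 0, and the sums were 612 to 793 CPM in ID control and 459 to 658 CPM in ID insulin. Of 8 markers of endothelium and pericytes 2 were lower (Vtn and Cdh5) and all 8 estimates were below 0. In 1 marker every ID insulin library was below every ID control library, as for 0.110% of all genes. The sums were 376 to 454 CPM in ID control and 248.8 to 418 CPM in ID insulin, where replicate 3 was the lowest. Of 8 microglia markers 1 was lower (Tmem119), of 7 astrocyte markers 1 was lower (Gjb6), and of 10 myelin markers 1 was higher (Ugt8) and 1 lower (Mal). Replicate 3 had the highest microglia, astrocyte and myelin sums of the ID insulin libraries. The part of these markers in the results for the mitotic genes was not tested, except for the 4 lists entered as covariates in a fit given after them.

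Of 6 blood markers 4 were higher in ID insulin than in ID control, where 1.96% of all genes were called higher and 1.86% lower. The sums were 932 to 3219, 1363 to 3205, 1572 to 3991 and 1260 to 5503 CPM in IS control, ID control, IS insulin and ID insulin pups, respectively. Of 7 markers of meninges and fibroblasts 5 were lower, with sums of 270 to 473, 315 to 708, 242 to 363 and 228 to 380 CPM. For the 7 markers of thalamus and habenula, 1 higher and 1 lower, the sums were 101 to 137, 101 to 174, 91.4 to 149 and 101 to 535 CPM, with 535 CPM in ID insulin replicate 5. The choroid plexus sums were 15.7 to 3275, 1177 to 5521, 25.3 to 4294 and 315 to 5984 CPM. Between ID insulin and ID control 0 of 7 choroid plexus markers were called. At an unadjusted p under 0.05 by edgeR there were 0, against 19.5% of all genes. The sum of 5984 CPM was that of ID insulin replicate 3. When the means of these 4 lists were added to the fit as covariates, 0 mitotic genes were called between ID insulin and ID control, and Mki67 had a log2 fold change of 0.48 (SE 0.14, adjusted p = 0.169). How many of all genes this fit called in that comparison is not given here. Between ID control and IS control it called 14 of all genes, against 45 without the covariates. In the same fit Mki67 and Cenpf were still called between ID insulin and IS insulin (adjusted p = 0.0182 and 0.0473), and Mki67 in the interaction (0.80, SE 0.15, adjusted p = 0.0191).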

How the data were processed

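RNA was sequenced from 1 hippocampus of each of 32 rat pups in 4 groups, which were taken from the labels. The authors deposited raw counts per gene. Per the submitters' processing notes, tools named for the series are Trimmomatic (version 0.40), FastQC, HISAT2 (version 2.1.0), featureCounts and edgeR, and the genome builds Rnor_6.0 and mm10 are listed without a role. Strand use and the treatment of reads that map to several places are not given in the sources used here, so overlapping genes and near-identical copies are uncertain. The table held no columns of other samples (0), and 9663 of its 32883 genes had no count. Within groups, all libraries differed by more than sampling noise (chi-square divided by the number of genes at least 5.77).

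The tests used edgeR (version 4.0.16; R version 4.3.3), with TMM scaling of the counts and the filter filterByExpr by group, which kept 15439 genes. The quasi-likelihood F-test (glmQLFit, glmQLFTest, two-sided) had 1 coefficient per group over all 32 libraries and 28 residual degrees of freedom. Benjamini-Hochberg adjustment ran over all genes tested, with calls under 0.05. The SE is the absolute log2 fold change divided by the square root of F. For title numbers 70 and 69, a separate model held just the 9 ID control pups. The procedure was tested on simulated counts.

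Alternatives were DESeq2 (version 1.42.0, independent filtering off), its size factors in edgeR, no count filter, at least 1 CPM in 7 libraries, limma voom (version 3.58.1) with quality weights per sample, a fit of only the groups compared, the earlier quasi-likelihood method, the second title number as a block, marker list means as covariates, ID control of title number 69 or 70 alone, leaving out each library, and, chosen after seeing the data, leaving out ID insulin replicates 3 and 5. The members and gene lists were chosen with earlier results of these data known. Values were given in full for members called in any comparison, for Mki67, Top2a, Cdk1, Ccnb1, Mcm2, Mcm6, Pcna and Rrm2, and, of the 3 other cycle lists, for up to 6 called genes each in the 2 comparisons with most calls. Others named, such as Tyms, Kif4a, Aurkb and Ncapg, were chosen after their values were seen. Promoters are those of RefSeq (GRCr8), the first entry where a gene had several (2 members).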

Additional observations from a re-analysis of the deposited data

Results flagged for a closer look

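In 64 groups of 7 to 9 libraries, taking the named members and the average levels of both gene lists, 7 held a library far from the rest. Chance alone gives about 1 in 20 for a single group. The groups come from the same 32 libraries and are not independent, so this rate does not apply to their count. ID insulin replicate 3 was the library in 4 of the 7. Prc1 was at 17.8 CPM in it and at 8.27 to 11.1 CPM in the other ID insulin libraries. Mcm2 was at 10.97 CPM against 6.47 to 8.53 CPM, and Rrm2 at 3.80 CPM against 1.34 to 1.94 CPM. The average level of the mitotic genes was 137.1% in replicate 3 and 105.6% to 113.6% in the others. In other groups, Ncaph was at 3.21 CPM in ID control replicate 1 and at 1.78 to 2.30 CPM in the rest, Kif2c at 1.70 CPM in IS control replicate 5 against 0.605 to 0.956 CPM, and Prim1 at 31.1 CPM in IS insulin replicate 2 against 17.9 to 22.6 CPM.

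The difference between insulin and control pups itself differed between the diets for Mki67 (interaction 0.88 on the log2 scale) and Cenpf (0.84), by the edgeR test given in the report.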

How the results depend on the processing

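The 12 alternatives (11 for the interaction, which needs all groups) and the 32 fits without 1 library were read for the counts of members called. S-phase genes were called 0 times in any of them, and mitotic genes lower only as given here. With marker list means as covariates the mitotic genes called higher were 0 between ID insulin and ID control (5 in the report), 2 against IS insulin (4), 0 against IS control (4) and 1 in the interaction (2). Without ID insulin replicates 3 and 5 they were 3 against ID control and 1 against IS control. With the compared groups alone they were 3 and 2. Title number 69 alone as ID control gave 1 against ID control and 1 in the interaction, and number 70 alone gave 3 against ID control. DESeq2 gave 8 against IS insulin, and limma voom 4 in the interaction and, between ID control and IS control, 1 higher and 1 lower. In other fits the counts were within 1.5 times. The cause of these changes was not tested. Leaving out 1 library gave 4 to 6 against ID control, 3 to 6 against IS insulin, 1 to 5 against IS control and 2 to 3 in the interaction. Between ID control and IS control it gave 0 to 1 higher (Kif2c, without IS control replicate 5) and 0 to 1 lower (Kif4a, without ID insulin replicate 3).

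The second title number as a block gave 2 mitotic genes against IS control and 1 in the interaction. It does not pair the pups. The deviations of the 40 pairs of libraries that share a number had a median correlation of 0.0034 (8 over 0.1), and those of 343 other pairs 0.0038 (72 over 0.1).

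The single members followed through these fits kept their direction except where named next. Mcm2 turned from 0.08 to -0.0476 with the covariates and to -0.0351 without ID insulin replicates 3 and 5, and Pcna from 0.04 to -0.0636 with the covariates, none of them called. Mki67 was called in 11 of 12 alternatives against ID control, in 12 of 12 against IS insulin and in 11 of 11 in the interaction, Cenpf in 7, 12 and 8, Ncaph against ID control in 10, Aspm in 10 and Prc1 in 5. All genes called ranged over the alternatives from 12 to 819 for ID insulin against ID control, 14 to 242 for ID control against IS control, 0 to 206 for IS insulin against IS control, 70 to 723 for ID insulin against IS insulin, 4 to 855 for ID insulin against IS control and 9 to 491 in the interaction. Depth limits the rarer members, of which 31 had a median under 100 reads.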
